A study of Mus musculus with 18 samples.

Results

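Heat shock proteins and J-domain chaperones were examined in hypothalamus, pituitary and ovary of female mice that had been transported and of their littermate controls. The set was defined by gene symbol as the members of the Hspa, Hspb, Hsph, Hsp90, Hspd, Hspe and Dnaja, Dnajb and Dnajc families that had an array probe set (a transcript cluster) of their own. It held 66 genes of the 22180 measured. They were 14 Hsp70 and Hsp110 genes (Hspa and Hsph1), 2 Hsp90 genes and 2 chaperonin genes (Hspd1 and Hspe1). A further 7 had the Hspb symbols of small heat shock proteins, and 3 were Dnaja, 12 Dnajb and 26 Dnajc genes. Hsp90ab1 and Dnaja1 had no cluster that named them alone and are not among the 66. Where a gene had several clusters, which concerned 5 of the 66, the brightest one on average was used.

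RNA was measured on 18 arrays, 3 for each tissue in the stress group and 3 in the control group. The mice were BABL/c females (strain as spelled in the labels) from 10 littermate pairs, 1 mouse of a pair in each group. Stress was a journey out and back, for which the labels give 1000 km, nearly 10 h and an average of 50 km/h. Both groups shared 1 laboratory outside the journey. Mice of both groups entered the study at 6 weeks of age and were superovulated at 9 weeks, so every sample, control included, comes from a hormonally stimulated animal. Each tissue of a group has 1 array of the mouse with the most oocytes (high), 1 of the mouse with the fewest oocytes (low) and 1 of the remaining 8 mice combined (pool). The groups of 3 therefore hold 2 single mice and 1 pool, and p values measure the spread between these 3 unlike samples. Values are log2 signals as the authors deposited them, so each unit of difference multiplies signal by 2, and levels of different genes, which depend on their probes, are not set against each other.

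Heat shock proteins bind unfolded or partly folded proteins and keep them from aggregating. Hsp70 proteins do so in cycles of ATP hydrolysis that J-domain proteins start and that Hsp110 proteins and other nucleotide exchange factors end, and Hsp90 takes over many clients at a late stage of folding. Separate members serve the cytosol, the endoplasmic reticulum, where secreted hormones and receptors fold, and the mitochondria. In the cytosol the heat shock factor Hsf1 switches on the inducible members after heat or other proteotoxic stress, and in the endoplasmic reticulum the unfolded protein response does the same for the resident members.

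Promoter windows are shown for members on which the results below turn. They hold matches to the elements through which these 2 responses are known to act. A RefSeq window of 300 bases (250 before and 50 after the annotated start, build GRCm38.p6) was listed for 54 of the 66 genes. The others were Dnajc2, Dnajc5, Dnajc5b, Dnajc11, Dnajc12, Dnajc18, Dnajc22, Dnajc30, Hsp90aa1, Hspa8, Hspa9 and Hspa13. Each window was searched on both strands for 3 patterns. The heat shock element was searched as 2 units, GAANNTTC, and as 3 units, GAANNTTCNNGAA (TTCNNGAANNTTC on the opposite strand), and every match of the longer form contains the shorter one. The endoplasmic reticulum stress response element was searched as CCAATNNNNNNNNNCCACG (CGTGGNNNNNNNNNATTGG on the opposite strand). The 2-unit form was found in 13 of the 54 genes (Dnaja4, Dnajb6, Dnajc27, Dnajc5g, Hspa1a, Hspa1b, Hspb1, Hspb3, Hspb6, Hspb8, Hspd1, Hspe1 and Hsph1), and in 9.04% of all genes with a window. The 3-unit form was found in 4 (Dnajb6, Hspd1, Hspe1 and Hsph1), against 0.662% of all genes. The endoplasmic reticulum element was found in 3 (Dnajc3, Hsp90b1 and Hspa5), against 0.137% of all genes. Counted over windows, the shares were 7.86%, 0.603% and 0.119%. A match describes these letters and does not show that a factor binds there.

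Hspa1a and Hspa1b encode the inducible cytosolic Hsp70 and lie next to each other on the minus strand of chromosome 17. Their windows, chr17:34972107-34972406 and chr17:34959189-34959488, are the same at 296 of 300 bases. Counted from 1 at the 5′ end of the window, Hspa1b differs from Hspa1a by C44T, T47C, T249G and C276T. Capitals mark the 2-unit heat shock element, which both share.
Hspa1a: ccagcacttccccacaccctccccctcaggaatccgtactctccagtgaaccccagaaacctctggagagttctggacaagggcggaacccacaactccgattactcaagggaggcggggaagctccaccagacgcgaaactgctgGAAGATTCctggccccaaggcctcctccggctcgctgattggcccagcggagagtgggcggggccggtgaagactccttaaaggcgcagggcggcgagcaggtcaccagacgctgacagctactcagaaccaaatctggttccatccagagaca
Hspa1b: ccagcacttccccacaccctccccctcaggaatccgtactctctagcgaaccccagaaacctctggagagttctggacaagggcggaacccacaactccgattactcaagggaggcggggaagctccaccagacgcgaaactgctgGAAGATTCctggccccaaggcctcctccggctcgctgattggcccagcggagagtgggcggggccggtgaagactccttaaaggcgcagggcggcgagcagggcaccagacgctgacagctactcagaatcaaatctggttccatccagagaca

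Hspe1 and Hspd1 encode the mitochondrial chaperonins Hsp10 and Hsp60 and start head to head on chromosome 1, so that the Hspe1 window (chr1:55087898-55088197, plus strand) overlaps a window of Hspd1 (chr1:55087883-55088182, minus strand). Hsph1, an Hsp110, is on the minus strand of chromosome 5 (chr5:149636287-149636586). Capitals mark the 3-unit heat shock element, which occurs in a pair of overlapping copies in the chaperonin promoter.
Hspe1: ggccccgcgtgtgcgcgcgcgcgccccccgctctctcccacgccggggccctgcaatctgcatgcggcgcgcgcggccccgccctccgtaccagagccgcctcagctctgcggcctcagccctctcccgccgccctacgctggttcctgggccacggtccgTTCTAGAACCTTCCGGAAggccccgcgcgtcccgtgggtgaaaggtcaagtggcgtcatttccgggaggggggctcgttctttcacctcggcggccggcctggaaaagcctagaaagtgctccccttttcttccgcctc
Hsph1: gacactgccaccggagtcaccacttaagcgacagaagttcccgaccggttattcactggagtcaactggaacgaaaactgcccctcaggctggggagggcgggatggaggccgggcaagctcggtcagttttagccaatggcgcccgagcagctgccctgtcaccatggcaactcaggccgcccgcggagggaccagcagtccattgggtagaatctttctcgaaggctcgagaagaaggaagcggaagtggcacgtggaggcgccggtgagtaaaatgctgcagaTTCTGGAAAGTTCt

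Hspa5 (BiP, the Hsp70 of the endoplasmic reticulum), Hsp90b1 (Grp94, its Hsp90) and Dnajc3 (P58IPK, a J-domain partner of BiP) are the 3 genes with the endoplasmic reticulum element. Their windows are chr2:34771840-34772139 (plus strand), chr10:86705395-86705694 (minus strand) and chr14:118937682-118937981 (plus strand). Capitals mark the element, which occurs in 2 copies in Hsp90b1.
Hspa5: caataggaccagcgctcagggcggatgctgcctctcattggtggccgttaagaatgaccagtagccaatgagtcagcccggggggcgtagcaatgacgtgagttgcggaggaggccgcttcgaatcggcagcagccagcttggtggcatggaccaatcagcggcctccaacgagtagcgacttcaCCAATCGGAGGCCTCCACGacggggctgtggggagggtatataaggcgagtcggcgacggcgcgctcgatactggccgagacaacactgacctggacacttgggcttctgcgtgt
Hsp90b1: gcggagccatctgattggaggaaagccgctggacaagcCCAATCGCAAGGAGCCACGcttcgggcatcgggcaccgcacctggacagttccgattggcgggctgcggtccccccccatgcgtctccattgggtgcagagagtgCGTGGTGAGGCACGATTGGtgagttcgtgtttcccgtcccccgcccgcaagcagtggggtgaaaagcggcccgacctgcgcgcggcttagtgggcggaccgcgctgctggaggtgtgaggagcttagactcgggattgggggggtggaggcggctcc
Dnajc3: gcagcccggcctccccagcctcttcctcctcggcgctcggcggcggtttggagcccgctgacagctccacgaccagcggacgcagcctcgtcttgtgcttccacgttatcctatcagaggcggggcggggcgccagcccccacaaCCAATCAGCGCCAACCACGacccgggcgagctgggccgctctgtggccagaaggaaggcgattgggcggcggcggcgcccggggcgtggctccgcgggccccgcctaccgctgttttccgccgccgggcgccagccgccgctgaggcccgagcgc

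The labelled tissues were checked with hormone and cell marker lists. In hypothalamus 6 of 7 measured markers, in pituitary 7 of 7 and in ovary 7 of 8 were higher in every array of the tissue than in any other array, with Hdc and Amh the exceptions. Over all genes, pairs of arrays correlated at 0.941 to 0.993 within a tissue and at 0.828 to 0.941 between tissues. Some pools read high for markers of another tissue. In ovary, 7 measured pituitary markers averaged 7.20 with stress and 6.74 without it in the pools, and 4.36 to 4.69 in single mice. In pituitary, 8 ovarian markers averaged 7.22 in the pool of stressed mice and 4.64 in that of controls, with single mice at 4.50 to 4.85. These ovarian markers averaged 6.48 in the stressed hypothalamus pool, with every other hypothalamus, the control pool among them, at 4.43 to 4.96. Hypothalamic markers were not raised in the ovary pools, at 5.41 in both against 5.37 to 5.73 in single mice. In the pituitary pools they averaged 6.45 with stress and 6.21 without it, against 5.81 to 6.05 in single mice. Single mice varied too, with the 7 pituitary markers averaging 5.38 to 6.42 in their hypothalami. Prl there read 9.26 in the low control and 8.68 in the high stressed mouse. It read 5.53 in the high control and 6.55 in the low stressed mouse. The ovarian marker Cyp11a1 read 6.99 in the low control hypothalamus and 4.10 to 5.59 in the other single mice. Results are also given without the pools, which leaves such differences between single mice in place. Of the 66 chaperone genes, 9 (Dnajb3, Dnajb7, Dnajb13, Dnajc5b, Dnajc5g, Dnajc22, Hspa1l, Hspb3 and Hspb9) read below the median gene level of 5.70 in all 18 arrays. All 66 were kept in every test.

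**Figure D1:**
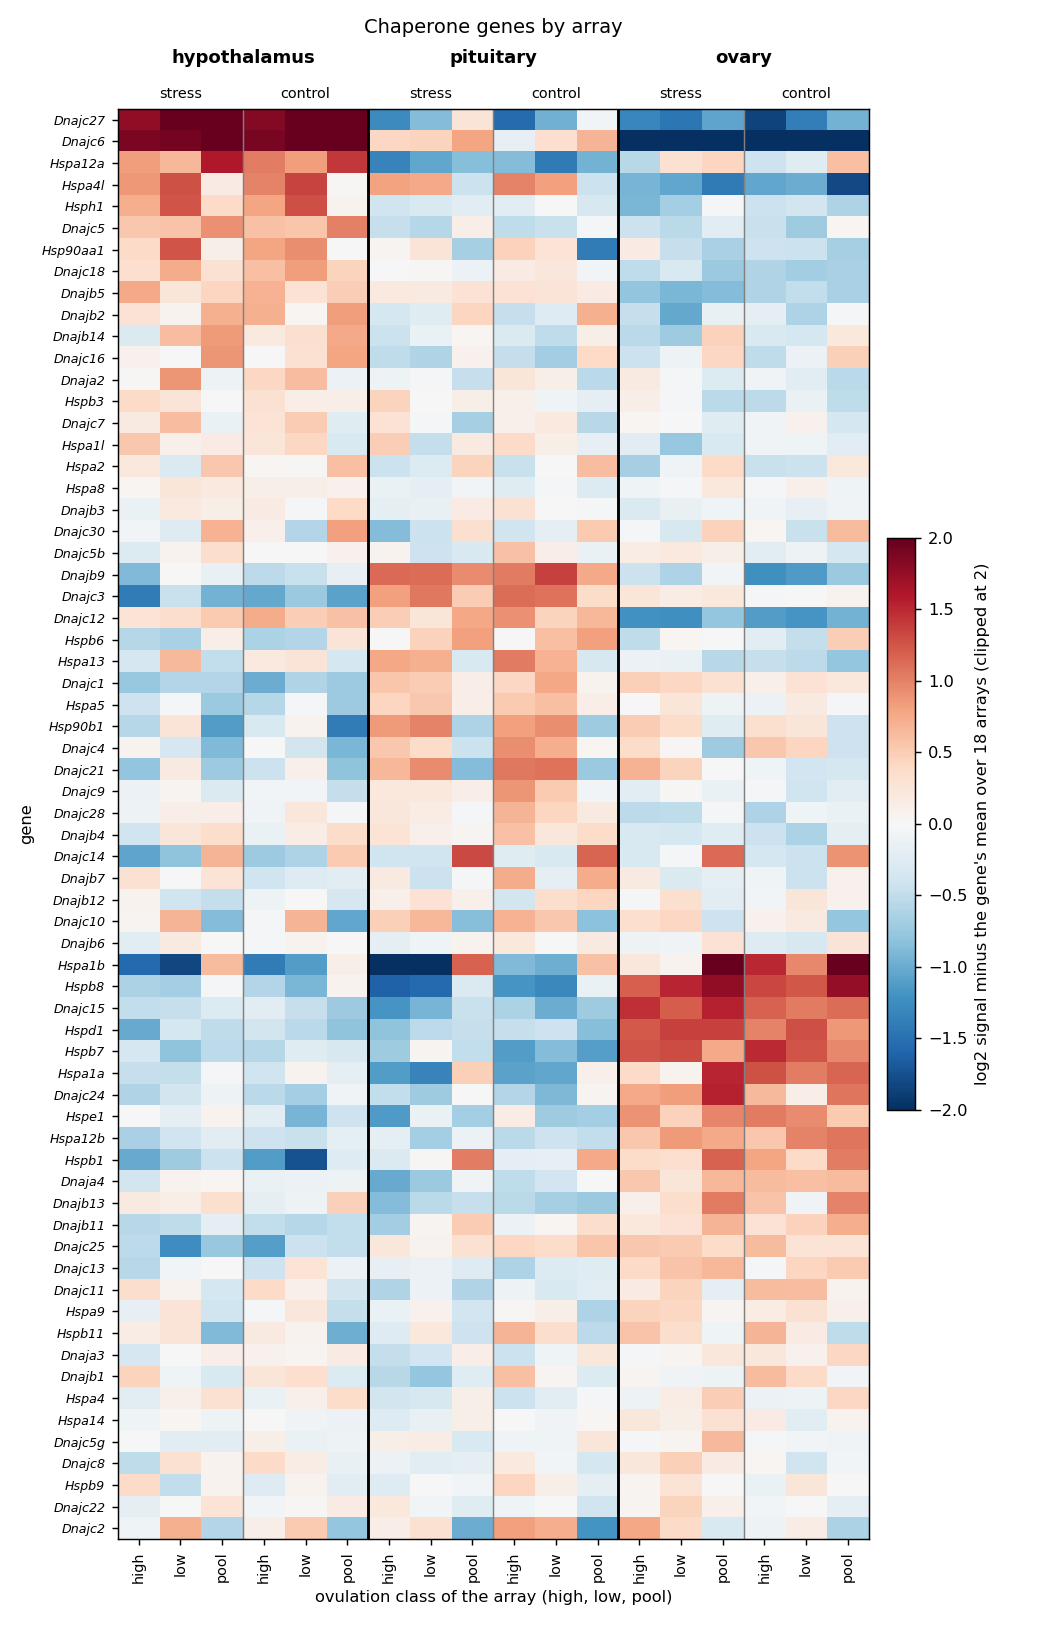
Log2 signal of each of the 66 genes (rows) on each of the 18 arrays (columns), as the difference from the gene's own mean over all arrays, with red above and blue below that mean and the colour scale clipped at 2. Columns run by tissue, with stress left of control, and rows are grouped by the tissue of the highest mean. The blocks of colour follow the tissues, and Hspa1b, Dnajc6, Dnajc27 and Hspb8 span the widest ranges over the 18 arrays.

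Many chaperone genes differed between the tissues, as did many genes in all. With mouse or pool as a block, limma called 20 of 66 members higher and 15 lower in hypothalamus than in pituitary, against 20.8% and 21.5% of all genes. In hypothalamus against ovary, 21 were higher and 22 lower (22.3% and 27.0% of all genes). In pituitary against ovary, 18 were higher and 19 lower (20.3% and 23.2%). The median difference over the 66 genes was 0.11, -0.06 and 0.01 in these 3 comparisons, and -0.04, -0.03 and 0.01 over all genes. Without the pools, 16 members were higher and 13 lower in hypothalamus than in pituitary (19.0% and 18.1% of all genes). Hypothalamus against ovary then gave 16 and 19 (19.8% and 22.6%), and pituitary against ovary 15 and 17 (17.7% and 20.4%). Taken over both contrasts of a tissue, hypothalamus was highest for 12 of the 66 genes (14.5% of all genes), pituitary for 7 (8.38%) and ovary for 14 (17.0%). Without the pools these numbers were 9, 8 and 13 (12.7%, 7.32% and 13.9% of all genes). In such bulk samples a difference between tissues in the cells present cannot be told apart from one in RNA per cell. No tissue contrast passed for 12 genes: Dnajb1, Dnajb6, Dnajb7, Dnajc2, Dnajc5b, Dnajc5g, Dnajc8, Dnajc10, Dnajc22, Dnajc30, Hspa14 and Hspb9.

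Dnajc6 was among the 12 genes highest in hypothalamus. It encodes auxilin, the J-domain protein with which Hsc70 strips clathrin from endocytosed vesicles in neurons. Its log2 signal (lowest, median and highest of 6 arrays) was 10.30, 10.40 and 10.58 in hypothalamus, 8.25, 8.85 and 9.20 in pituitary and 5.53, 6.00 and 6.42 in ovary. The ranges of the 3 tissues did not overlap, and each step was called: hypothalamus exceeded pituitary by 1.58 (95% interval 1.29 to 1.88, limma adjusted p = 5.34e-08) and ovary by 4.41 (4.11 to 4.71, adjusted p = 5.97e-14), and pituitary exceeded ovary by 2.83 (2.53 to 3.12, adjusted p = 3.6e-11).

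Dnajc27 (Rbj), a J-domain protein that also carries a Rab-like GTPase domain, read 9.05, 9.32 and 9.65 in hypothalamus, 5.75, 6.37 and 7.54 in pituitary and 5.43, 5.94 and 6.34 in ovary. Every hypothalamus array lay above every other array. The differences were 2.81 against pituitary (2.49 to 3.13, limma adjusted p = 1.28e-10) and 3.40 against ovary (3.09 to 3.72, adjusted p = 2.9e-12), while pituitary and ovary ranges overlapped. The excess of pituitary over ovary, 0.59 (adjusted p = 0.00368), lost its call without the pools. In pituitary the 2 highest Dnajc27 values, 7.54 and 7.22, were those of the stressed and the control pool, and the mean over 5 neuronal markers was 8.87 in that stressed pool and 7.84 in that of controls, with single mice at 7.45 to 7.81. The part of other cells in this was not tested.

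Dnajc5, which encodes the cysteine string protein of synaptic vesicles, ran from 9.16 to 9.63 in hypothalamus, with 8.06 to 8.75 in pituitary and 7.91 to 8.66 in ovary. Again no array of another tissue reached the hypothalamus range. The gap was 1.01 to pituitary and 1.08 to ovary (limma adjusted p = 2.09e-07 and 4.69e-08). Dnajb2, a J-domain protein enriched in neurons, was higher in hypothalamus by 0.47 and 0.85 over pituitary and ovary (limma adjusted p = 0.0106 and 4.22e-05). Dnajc18 was higher by 0.50 and 1.13, Dnajc16 by 0.65 and 0.39, Dnajb14 by 0.61 and 0.62 and Dnaja2 by 0.41 and 0.44, all called. Without the pools, Dnajc16 and Dnaja2 were no longer highest in hypothalamus by this rule.

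Hspa12a and the Hsp110 gene Hsph1 were also highest in hypothalamus. Hspa12a, an Hsp70 relative with a divergent ATPase domain, read 7.88, 8.15 and 8.82 in hypothalamus, 5.81, 6.23 and 6.37 in pituitary and 6.66, 7.25 and 7.83 in ovary. Its 3 ranges did not overlap, with pituitary lowest. Hypothalamus was 2.14 above pituitary (1.83 to 2.45, limma adjusted p = 2.21e-09) and 1.04 above ovary (0.73 to 1.35, adjusted p = 8.58e-06). Hsph1 (Hsp110) read 8.97, 9.65 and 10.18 in hypothalamus, 8.5, 8.63 and 8.89 in pituitary and 7.98, 8.38 and 8.87 in ovary. It was 1.0 above pituitary and 1.26 above ovary (limma adjusted p = 9.09e-05 and 4.37e-06), and all 6 hypothalamus arrays were above the rest.

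Hspa4l, another Hsp110, was marked more by its low ovarian level: 7.85, 8.76 and 9.17 in hypothalamus, 7.40, 8.61 and 8.81 in pituitary and 6.01, 6.78 and 6.90 in ovary. Hypothalamus and pituitary overlapped and differed by 0.35 (limma adjusted p = 0.0398), a call lost without the pools. Both were far above ovary, by 1.98 (adjusted p = 5.96e-10) and 1.63 (adjusted p = 1.62e-08). The third Hsp110, Hspa4, showed another order: it was lowest in pituitary, 0.30 below hypothalamus and 0.33 below ovary (limma adjusted p = 0.0191 and 0.00938), and both calls were lost without the pools. Hsp90aa1, the inducible cytosolic Hsp90, was 0.75 higher in hypothalamus than in pituitary and 0.99 higher than in ovary (limma adjusted p = 0.00374 and 0.000252). Dnajc12, a co-chaperone of the aromatic amino acid hydroxylases that make serotonin and dopamine precursors, had overlapping ranges in hypothalamus (7.92 to 8.40) and pituitary (7.89 to 8.56) and a lower one in ovary (6.42 to 6.88). Its hypothalamic excess over ovary was 1.57 and its pituitary excess 1.66 (limma adjusted p = 6.08e-10 and 6.66e-10), with no overlap. Dnajb5 was also lowest in ovary, 1.21 below hypothalamus and 0.95 below pituitary.

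**Figure D2:**
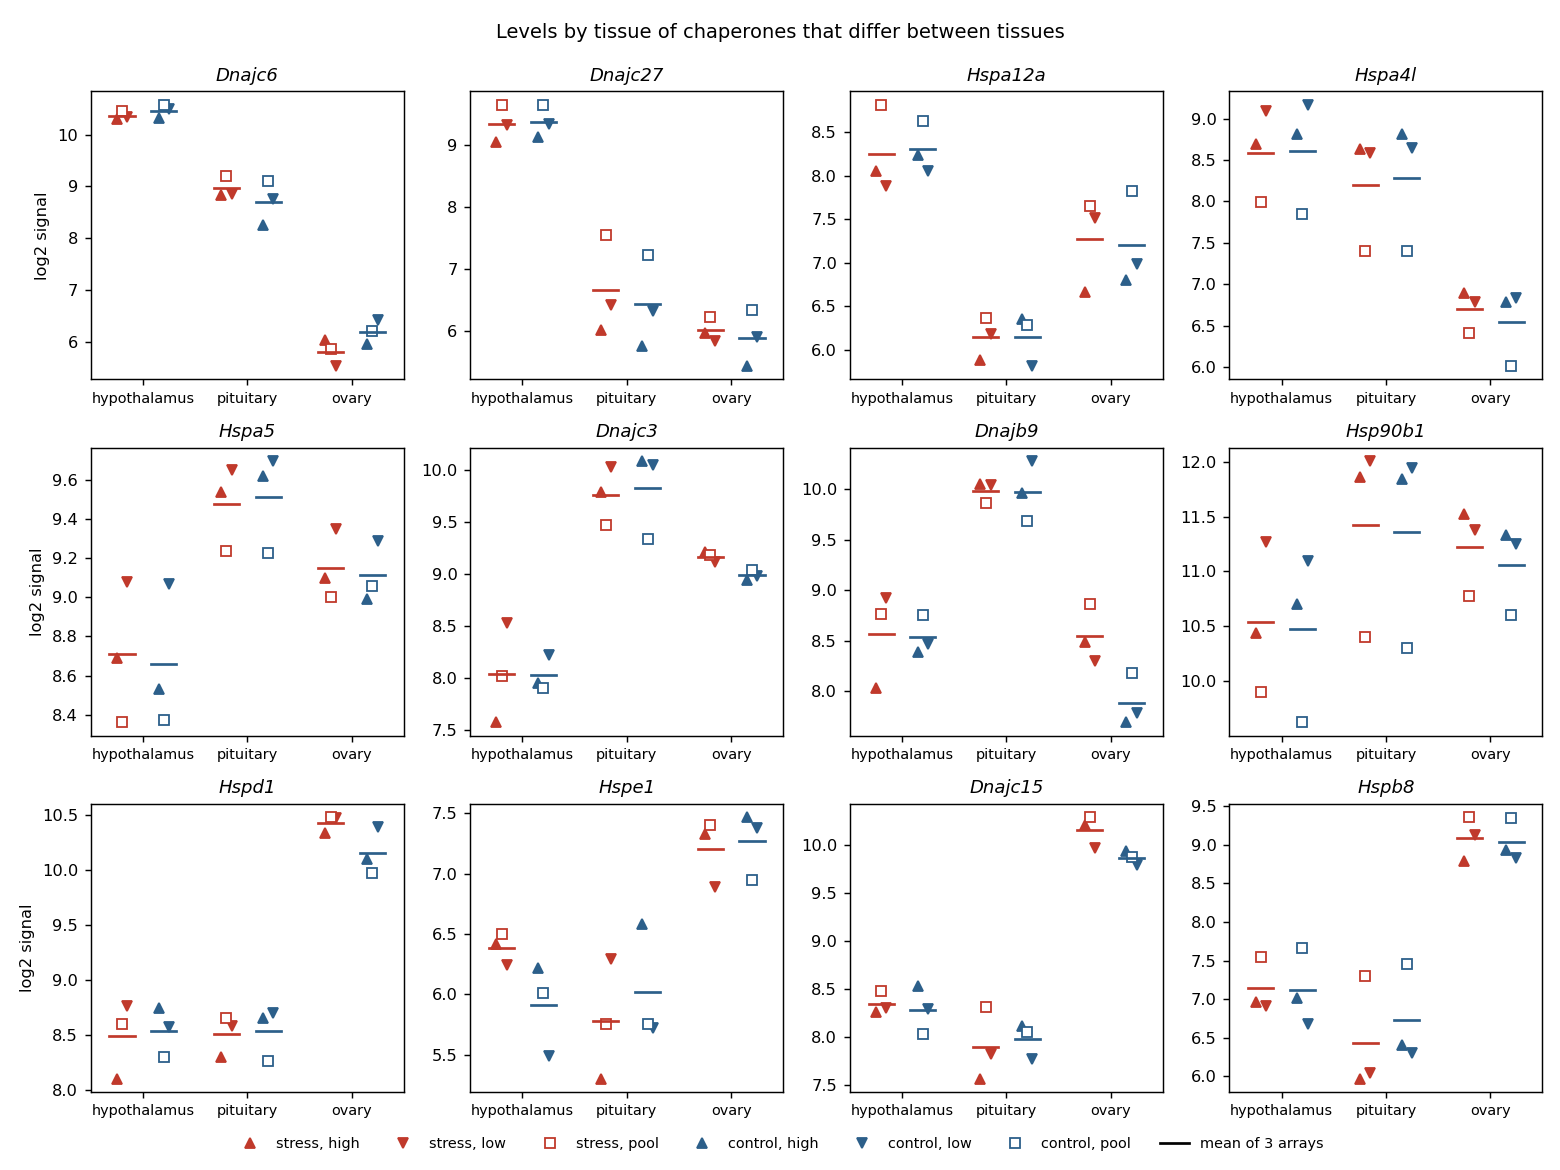
Log2 signal of 12 chaperone genes on each array by tissue, with stress (red) left of control (blue), upward triangles for the high mouse, downward triangles for the low mouse, open squares for the pool and a bar for the mean of 3 arrays. The top row shows genes high in hypothalamus or low in ovary, the middle row genes of the endoplasmic reticulum, with pituitary highest or hypothalamus lowest, and the bottom row genes that are highest in ovary. Each vertical axis covers only the range of its gene.

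Of the 7 members in a list of endoplasmic reticulum stress response genes, 4 (Dnajb9, Dnajc3, Hspa5 and Hspa13) were highest in pituitary. Hsp90b1 was lowest in hypothalamus, Dnajb11 was highest in ovary, and Dnajc10 passed in no contrast. Dnajc3 read 7.57, 7.98 and 8.53 in hypothalamus, 9.34, 9.91 and 10.09 in pituitary and 8.94, 9.07 and 9.21 in ovary. The 3 ranges did not overlap, and hypothalamus lay 1.76 below pituitary (-2.07 to -1.46 for hypothalamus minus pituitary, limma adjusted p = 2.31e-08) and 1.05 below ovary (adjusted p = 7.81e-06). Dnajb9 (ERdj4), which targets misfolded proteins for degradation, read 8.03, 8.61 and 8.92 in hypothalamus, 9.68, 10.00 and 10.28 in pituitary and 7.69, 8.24 and 8.86 in ovary. Pituitary stood clear of both, by 1.42 over hypothalamus (limma adjusted p = 4.04e-06) and 1.76 over ovary (adjusted p = 2.76e-07).

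Hspa5 (BiP) read 8.36, 8.61 and 9.08 in hypothalamus, 9.23, 9.58 and 9.70 in pituitary and 8.99, 9.08 and 9.35 in ovary. Hypothalamus and pituitary were apart, while the ovary overlapped both. Hypothalamus minus pituitary was -0.81 (-1.03 to -0.59, limma adjusted p = 5.48e-06). Hypothalamus minus ovary, -0.45 (adjusted p = 0.00158), was no longer called without the pools, and pituitary minus ovary, 0.36 (adjusted p = 0.00895), was not called without the animal block. Hsp90b1 (Grp94) read 9.62, 10.57 and 11.27 in hypothalamus, 10.30, 11.85 and 12.01 in pituitary and 10.60, 11.29 and 11.52 in ovary. Its hypothalamic level was 0.89 below pituitary and 0.64 below ovary (limma adjusted p = 0.00015 and 0.00219), and the lowest value of each tissue was from a pool. Dnajb11 (ERdj3) was 0.49 lower in hypothalamus than in pituitary but 0.42 lower in pituitary than in ovary (limma adjusted p = 0.00329 and 0.00998). Its call against pituitary was lost without the pools and its call between pituitary and ovary under quantile normalization. Hspa13 (Stch), an Hsp70 relative of the microsomes, was highest in pituitary, by 0.44 over hypothalamus, a call lost under 5 of 11 alternatives, and by 0.86 over ovary. Dnajc10 (ERdj5), a disulphide reductase, passed in no contrast (hypothalamus minus pituitary -0.21).

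Of these 7 members, 6 were lower in hypothalamus than in pituitary and 0 higher, against 21.5% and 20.8% of all genes. Their median difference was -0.81, against -0.04 over all genes. Without the pools, 5 were lower (18.1% of all genes). Pituitary exceeded ovary in 4 of the 7 and fell short in 1 (20.3% and 23.2% of all genes). Hypothalamus was below ovary in 4 of the 7 and above it in 1 (27.0% and 22.3% of all genes). Without the pools it was below in 3 (22.6% of all genes). The 17 measured genes of that list outside the 66 gave similar counts: 14 were lower in hypothalamus than in pituitary and 0 higher (median -0.90), and without the pools 13. Sdf2l1, a partner of ERdj3, differed by -2.28 (limma adjusted p = 9.16e-11), Creld2 by -1.47, the unfolded protein response sensor Atf6 by -1.17 and the disulphide isomerase Pdia6 by -1.14. In hypothalamus against ovary, 12 of the 17 were lower and 1 higher (median -0.71), and without the pools 10 were lower. In pituitary against ovary, 10 of the 17 were higher and 1 lower (median 0.34), against 20.3% and 23.2% of all genes. Edem1, which acts in the disposal of misfolded glycoproteins, was the 1 that was lower (-1.21), and Herpud1 was 1.15 higher. All 3 members with the endoplasmic reticulum element in their promoter, shown above, were among those lower in hypothalamus than in pituitary. So were Dnajb9 and Dnajb11, whose windows held no match to it. The levels of other genes with the element were not examined. Stress minus control in pituitary itself was within -0.13 to 0.06 for all 7 members (Hspa5, Hsp90b1, Hspa13, Dnajc3, Dnajb9, Dnajb11 and Dnajc10), and none was called.

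**Figure D3:**
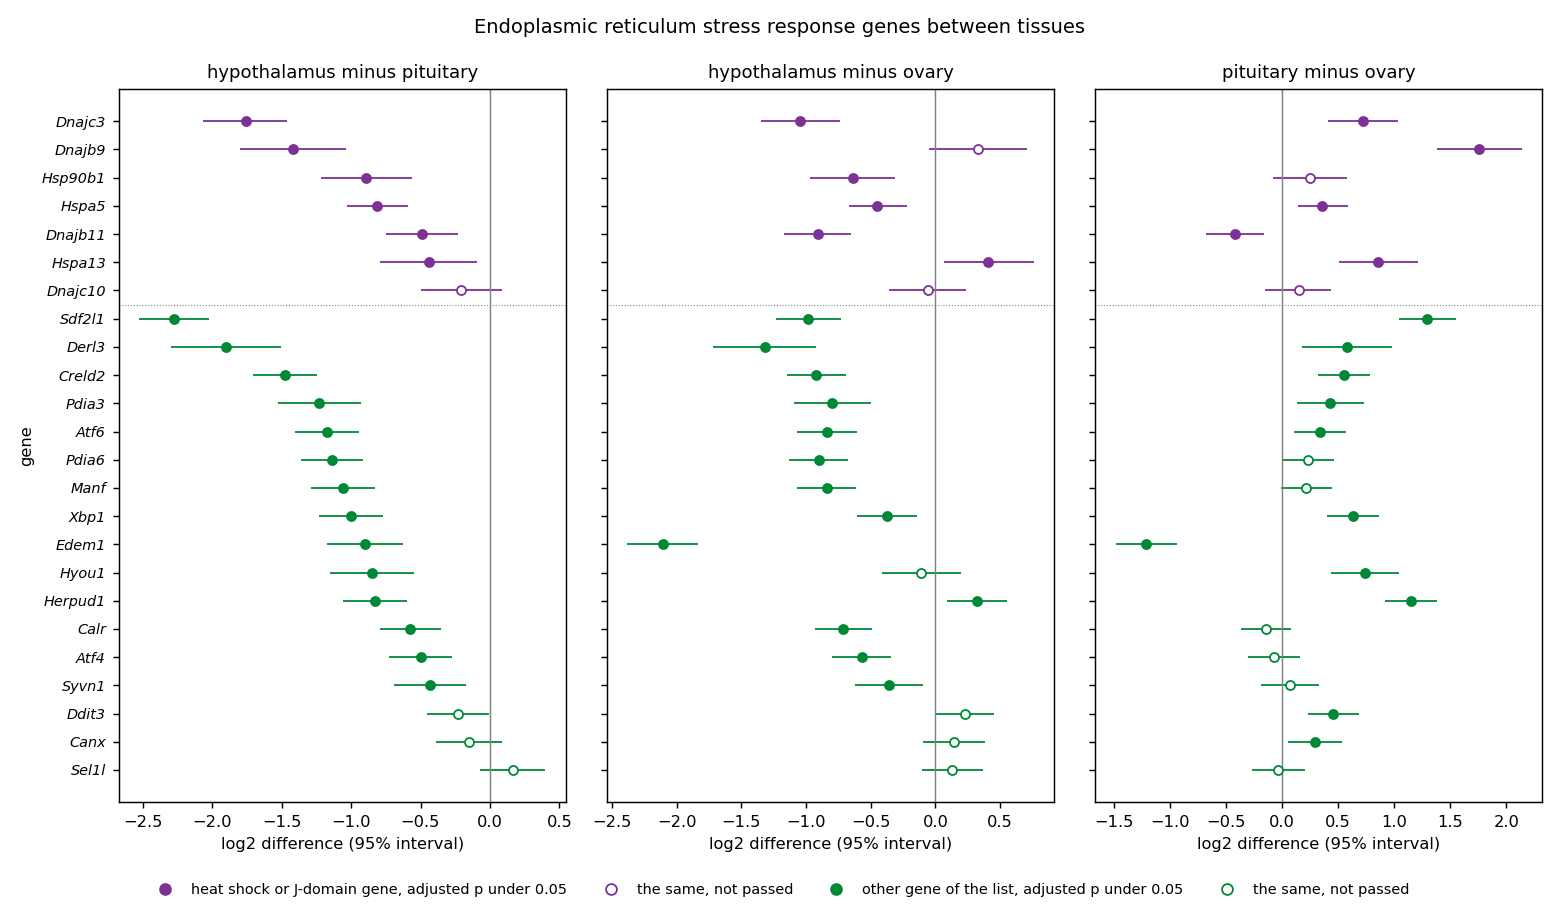
Log2 differences between tissues, with 95% limma intervals, for the 7 heat shock or J-domain genes (purple, above the dotted line) and the 17 other measured genes (green) of the endoplasmic reticulum stress response list, where filled points passed an adjusted p of 0.05. In the left panel 6 of 7 purple and 14 of 17 green points are filled and lie left of 0, and in the right panel most filled points lie right of 0.

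The other genes highest in pituitary were Hspb6, Dnajc9 and Dnajc4. Hspb6 (Hsp20), a small heat shock protein known from muscle, read 6.62, 6.69 and 7.52 in hypothalamus, 7.27, 7.79 and 8.09 in pituitary and 6.75, 7.14 and 7.75 in ovary. The ranges overlapped, but the differences of 0.79 and 0.57 passed (limma adjusted p = 6.71e-05 and 0.00145). Dnajc9, a chaperone of histones H3 and H4, was 0.47 above hypothalamus and 0.49 above ovary, and Dnajc4 0.76 and 0.32 above, the last value not called without the pools. Dnajc1 (ERdj1), which binds ribosomes at the endoplasmic reticulum, was 1.11 lower in hypothalamus than in pituitary and 1.01 lower than in ovary. Dnajc25 was 1.08 and 1.20 lower. No hypothalamus array of Dnajc1 (6.04 to 6.45) reached the other tissues (7.10 to 7.80).

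Both mitochondrial chaperonin genes were highest in ovary. Hspd1 (Hsp60) read 8.10, 8.58 and 8.76 in hypothalamus, 8.26, 8.61 and 8.70 in pituitary and 9.97, 10.36 and 10.48 in ovary. Every ovary array was above every other array, and the other 2 tissues overlapped throughout. Hypothalamus minus ovary was -1.78 (-2.01 to -1.54, limma adjusted p = 2.8e-10) and pituitary minus ovary -1.77 (adjusted p = 6.92e-10). Its partner Hspe1 (Hsp10), with which it shares the promoter shown above, read 5.49, 6.23 and 6.50 in hypothalamus and 5.30, 5.75 and 6.58 in pituitary, against 6.89, 7.35 and 7.47 in ovary. There too the ovary did not overlap, and the differences were -1.34 for pituitary minus ovary and -1.09 for hypothalamus minus ovary (limma adjusted p = 1.18e-05 and 8.13e-05).

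Dnajc15 (MCJ), a J-domain protein of the inner mitochondrial membrane, showed the same pattern: 8.03, 8.29 and 8.53 in hypothalamus, 7.57, 7.94 and 8.31 in pituitary and 9.79, 9.96 and 10.29 in ovary. Pituitary minus ovary was -2.07 (limma adjusted p = 2.47e-10) and hypothalamus minus ovary -1.70 (adjusted p = 1.38e-09). Hspa9 (mortalin), the Hsp70 of the mitochondrial matrix, differed less, by -0.40 for pituitary minus ovary and -0.35 for hypothalamus minus ovary, and its ovary range of 10.39 to 10.77 overlapped the other 2. Both calls of Hspa9 were lost without the pools. Dnaja3 (Tid1), a mitochondrial J-domain protein, was 0.33 lower in pituitary than in ovary, a call lost under 5 of 11 alternatives. Other mitochondrial members differed in order: Dnajc11 was lowest in pituitary, 0.35 below hypothalamus and 0.61 below ovary, and Dnajc30 passed in no contrast. The call of Dnajc11 between hypothalamus and pituitary was lost under 8 of 11 alternatives.

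Of the 7 genes with Hspb symbols, 3 (Hspb1, Hspb7 and Hspb8) were highest in ovary. Hspb6 was highest in pituitary, and Hspb9 and Hspb11 stood above or below both other tissues in none. Hspb3, which read below the median gene level in every array, was lowest in ovary. Its call between pituitary and ovary was lost under 7 of 11 alternatives, the one without the pools among them. Hspb8, which acts with Bag3 in the autophagy of damaged proteins, read 6.68, 6.98 and 7.66 in hypothalamus, 5.97, 6.35 and 7.46 in pituitary and 8.79, 9.03 and 9.36 in ovary. The ovary was separate from both, by -2.48 for pituitary minus ovary (-2.78 to -2.19, limma adjusted p = 1.49e-10) and -1.93 for hypothalamus minus ovary (adjusted p = 1.53e-09). Bag3 itself, which is not among the 66, was also lower outside the ovary, by 0.92 in pituitary and 1.56 in hypothalamus (limma adjusted p = 4.98e-05 and 5.6e-08). Hspb7, a small heat shock protein of heart and skeletal muscle, ran from 4.46 to 5.03 in hypothalamus, 4.15 to 5.32 in pituitary and 6.03 to 6.76 in ovary, and only its ovarian values lay above the median gene level. Hspb1 (Hsp27) ran from 4.66 to 6.15 in hypothalamus, 6.11 to 7.43 in pituitary and 6.74 to 7.58 in ovary. It was 1.56 lower in hypothalamus and 0.49 lower in pituitary (limma adjusted p = 4.43e-08 and 0.0101), the second of which was lost under 3 of 11 alternatives. The mean over 3 smooth muscle markers was 6.23 to 7.29 in hypothalamus, 6.10 to 7.53 in pituitary and 10.27 to 10.56 in ovary, and the part of smooth muscle in the levels of Hspb7 and Hspb1 was not tested.

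Among the remaining ovarian members, Dnajc24, needed for the diphthamide modification of elongation factor 2, was 1.27 above pituitary and 1.23 above hypothalamus. Hspa12b, an Hsp70 relative known from endothelium, was 1.20 and 1.18 above, with no overlap (5.06 to 5.62 in hypothalamus and pituitary, 6.29 to 6.82 in ovary). The mean over 3 endothelial markers was 6.89 to 7.26 in hypothalamus, 7.04 to 7.66 in pituitary and 8.64 to 8.97 in ovary, and its part in the level of Hspa12b was not tested. Dnajc13 (RME-8), an endosomal J-domain protein, was 0.70 and 0.56 above, and Dnaja4 1.0 and 0.66.

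The inducible Hsp70 genes were also highest in ovary, and Hspa1b had the widest range of all 66 genes within each tissue. Hspa1b read 5.53, 5.27 and 7.72 in stressed and 5.69, 5.97 and 7.21 in control hypothalami (high, low and pool). In pituitary it read 5.04, 4.98 and 8.27 with stress and 6.20, 6.11 and 7.67 in controls, and in ovary 7.31, 7.16 and 10.75 with stress and 8.60, 8.05 and 10.02 in controls. The pool was the highest array of its group in all 6 groups. Hypothalamus minus ovary was -2.42 and pituitary minus ovary -2.27 (limma adjusted p = 5.64e-10 and 2.78e-09). Hspa1a was lower by 1.15 in hypothalamus and 1.57 in pituitary than in ovary (limma adjusted p = 7.17e-05 and 3.11e-06). The coding sequences of Hspa1a and Hspa1b are nearly identical, so their probes may share signal, and each is uncertain for that reason. A further cluster, annotated to both, read only 3.01 to 5.30.

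The constitutive Hsp70, Hspa8 (Hsc70), varied little in the cluster used. It read 11.95 to 12.15 in hypothalamus, 11.63 to 11.88 in pituitary and 11.82 to 12.12 in ovary, and only hypothalamus minus pituitary, 0.29, passed (limma adjusted p = 0.0199), a call lost without the pools. Hspa2, best known from male germ cells, was 0.36 higher in hypothalamus than in ovary (limma adjusted p = 0.0296), with overlapping ranges of 6.57 to 7.46 and 6.20 to 7.24, and lost that call under 8 of 11 alternatives.

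The other genes of the heat shock response were mixed. Of the 12 members in that list, 5 were higher and 1 lower in hypothalamus than in pituitary, 4 higher and 5 lower than in ovary, and 2 higher and 6 lower in pituitary than in ovary. Of its 8 other measured genes, 1 was higher and 2 lower, 1 higher and 3 lower, and 0 higher and 4 lower in the same 3 comparisons. Over all genes the shares were 20.8% higher and 21.5% lower, 22.3% and 27.0%, and 20.3% and 23.2%. Serpinh1 (Hsp47), the collagen chaperone, was lower by 3.45 in hypothalamus and 1.68 in pituitary than in ovary (limma adjusted p = 5.07e-13 and 1.01e-08), while Stip1 (Hop), which passes clients between Hsp70 and Hsp90, was 0.82 higher in hypothalamus than in pituitary.

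Among 27 measured co-chaperones and heat shock factors, 8 were higher and 5 lower in hypothalamus than in pituitary. These were 29.6% and 18.5%, against 20.8% and 21.5% of all genes. In hypothalamus against ovary, 6 were higher and 7 lower (22.2% and 25.9%, against 22.3% and 27.0% of all genes). In pituitary against ovary, 1 was higher and 7 lower (3.7% and 25.9%, against 20.3% and 23.2% of all genes). Fkbp5, an Hsp90 co-chaperone that restrains the glucocorticoid receptor, was lower by 3.72 in hypothalamus and 3.11 in pituitary than in ovary (limma adjusted p = 5.58e-11 and 1.37e-09). Sil1, the nucleotide exchange factor of BiP, was highest in pituitary, like BiP: hypothalamus minus pituitary was -1.50 and pituitary minus ovary 1.17 (limma adjusted p = 6.14e-09 and 1.14e-07).

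The study compared stressed with control mice for gene expression that bears on superovulation. No chaperone gene passed in any tissue: 0 of 66 members in hypothalamus, pituitary or ovary, against 0% of all genes in each, with the lowest member adjusted p at 0.999976, 0.999894 and 0.998538 (limma). At an unadjusted p under 0.05 there were 1, 1 and 2 members, against 1.1%, 1.33% and 2.67% of all genes. The median stress minus control difference over the 66 genes was -0.02 for hypothalamus, -0.07 for pituitary and 0.07 for ovary, with 30, 20 and 41 genes positive, and over all genes -0.02, -0.04 and -0.02. Without the pools the members' medians were -0.04, -0.16 and 0.08, with 22, 15 and 43 genes positive, and those of all genes -0.03, -0.06 and -0.02. The median standard error over all genes was 0.23, 0.27 and 0.21, and the groups of 3 limit the precision.

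The 3 stress arrays lay wholly above the 3 control arrays for 2 members in hypothalamus (Dnajb7 and Hspe1) and wholly below for 0, against 1.94% and 2.6% of all genes. In pituitary 1 was above (Hspb7) and 1 below (Dnajc25), against 2.4% and 3.68%. In ovary 9 were above and 2 below, against 4.71% and 4.07%. The 9 were Dnajb9, Dnajc1, Dnajc3, Dnajc5b, Dnajc5g, Dnajc8, Dnajc15, Dnajc21 and Dnajc22, and the 2 were Dnajb5 and Hspa1l. Of these 11, Dnajc5b, Dnajc5g, Dnajc22 and Hspa1l read below the median gene level in every array.

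In ovary the smallest p values belonged to Dnajb9 and Dnajc21. Dnajb9 read 8.49, 8.30 and 8.86 in stressed and 7.69, 7.78 and 8.18 in control ovaries (high, low and pool). Every stressed value was above every control value. The difference was 0.67 (95% interval 0.17 to 1.16, limma adjusted p = 0.998538). Dnajc21, a J-domain protein of ribosome assembly, read 7.95, 7.69 and 7.25 with stress and 7.17, 6.87 and 6.90 in controls, a difference of 0.65 (0.15 to 1.15, limma adjusted p = 0.998538). Its groups did not overlap, but the lowest stressed and the highest control ovary were close.

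Further ovarian differences were small. Dnajc8, which acts in splicing, read 8.00, 8.25 and 7.94 with stress and 7.82, 7.38 and 7.72 in controls, and Dnajc15 10.21, 9.97 and 10.29 with stress and 9.94, 9.79 and 9.87 in controls. Both pairs of groups were apart, by 0.42 and 0.30 on average. Dnajb5 read 6.11, 5.99 and 6.04 with stress and 6.30, 6.41 and 6.26 in controls (difference -0.28). Dnajc3, the partner of BiP, was 0.18 higher, with all 3 stressed values (9.21, 9.11 and 9.18) above the controls (8.94, 8.98 and 9.04). Of the 7 endoplasmic reticulum members, 6 had positive ovarian differences (median 0.18), but of the 17 other genes of that list only 6 did (median -0.05). Of all 22180 genes 10387 did (median -0.02).

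In hypothalamus Hspe1 read 6.42, 6.24 and 6.50 with stress and 6.22, 5.49 and 6.01 in controls. The stressed values were all higher, though the lowest of them exceeded the highest control by little. The difference was 0.48 (-0.04 to 1.0, limma adjusted p = 0.999976). Its partner Hspd1 did not follow, with 8.10, 8.76 and 8.60 under stress and 8.74, 8.57 and 8.30 in controls (difference -0.05). Dnajb7 differed by 0.47 but read only 2.01 to 2.70 there.

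In pituitary Hspb7 read 4.56, 5.32 and 4.78 with stress and 4.15, 4.41 and 4.17 in controls, a difference of 0.64 (0.06 to 1.22, limma adjusted p = 0.999894), all below the median gene level. Dnajb1 (Hsp40), the inducible J-domain partner of Hsp70, read 7.10, 6.88 and 7.41 with stress and 8.25, 7.70 and 7.37 in controls. The single stressed mice were low and the single control mice high, while the pools were alike. The difference was -0.64 (-1.29 to 0.00, limma adjusted p = 0.999894).

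Within the ovulation classes each difference rests on 1 array a side and no test is possible. The member median differed in sign between classes in pituitary and hypothalamus, and was positive in every class in ovary. In pituitary 20 of 66 members had positive differences in the high class, 20 in the low class and 40 in the pool class, with medians of -0.18, -0.12 and 0.08. In hypothalamus the numbers were 19, 40 and 39 (medians -0.09, 0.02 and 0.05). In ovary they were 37, 42 and 41 (medians 0.03, 0.12 and 0.09). Over all genes the medians ran from -0.08 to 0.00 in these 9 comparisons. Positive differences made up 43.5% to 50.5% of all genes, and 28.8% to 63.6% of the members. In ovary 22 of 66 members were higher with stress in every class (33.3%, against 17% of all genes) and 9 lower in every class (13.6%, against 19.3%). In pituitary 5 were higher and 14 lower in every class (10.1% and 17.7% of all genes), and in hypothalamus 5 and 5 (9.23% and 14.3%).

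**Figure D4:**
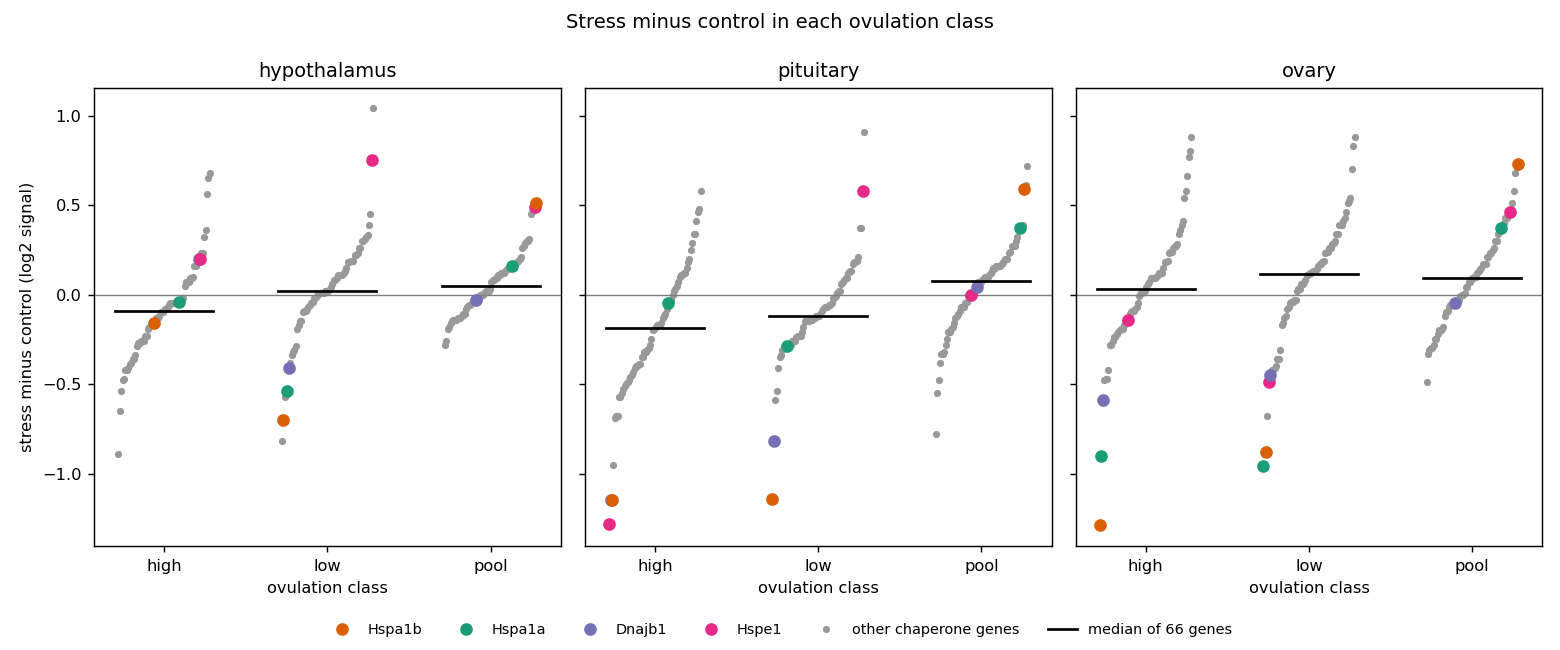
Stress minus control in log2 signal for each of the 66 genes, sorted within each ovulation class, in 3 tissues, with a bar at the median. Every point is the difference of 2 arrays. Hspa1b (orange) lies near the bottom in the high and low mice of pituitary and ovary and near the top in the pools, and in pituitary the high-mouse point of Dnajb1 is hidden behind it, as is that of Dnajb1 behind Hspe1 in the high mice of hypothalamus.

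Some inducible genes differed by class. Both single mice were lower and the pool higher with stress for 9 of 66 members in ovary (13.6%, against 11.3% of all genes). In pituitary these were 21 (31.8%, against 16% of all genes) and in hypothalamus 11 (16.7%, against 12%). Hsp90aa1 was among them in pituitary (-0.4, -0.02 and 0.72 for high, low and pool). Hsp90aa1 was not among them in ovary (0.58, -0.03 and 0.01) or hypothalamus (-0.39, 0.33 and 0.14). Stress minus control of Hspa1b in ovary was -1.29 in the high class, -0.88 in the low class and 0.73 in the pools. In pituitary it was -1.15 and -1.14 in the single mice and 0.59 in the pools, and in hypothalamus -0.16, -0.70 and 0.51. Hspa1a in ovary read 7.56, 7.25 and 8.71 with stress and 8.46, 8.21 and 8.34 in controls. The 2 single stressed ovaries were the lowest and the stressed pool the highest of the 6. In pituitary the stress minus control values of Hspa1a were -0.05 and -0.29 in single mice and 0.37 in the pools. In hypothalamus they were -0.04, -0.54 and 0.16 (high, low and pool).

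Dnajb1 was lower in the stressed single mice of ovary as well (-0.59 and -0.45), with -0.05 between the pools. Hsph1 in ovary read 7.98, 8.22 and 8.87 with stress and 8.47, 8.53 and 8.28 in controls: here too the single stressed mice were lowest and the stressed pool highest. In the 4 single mice alone, a fit singled out after these values were seen, stress minus control of Hspa1b was -1.14 in pituitary (-1.65 to -0.64, limma adjusted p = 0.561) and -1.09 in ovary (-1.65 to -0.52, limma adjusted p = 0.759). For Hspa1a in ovary it was -0.93 and for Dnajb1 in pituitary -0.99 (limma adjusted p = 0.759 and 0.689). The difference between the stress effect in pools and in single mice was 1.74 for Hspa1b in pituitary (limma adjusted p = 0.405), 1.82 in ovary and 0.94 in hypothalamus, and was called for 0 of 66 members in each tissue. This comparison was added after the values were seen. Its pool side is 1 stressed against 1 control array, so the spread in the fit comes from the single mice alone and the pools are assumed to vary like them. At an unadjusted p under 0.05 there were 0 members in hypothalamus, 2 in pituitary and 3 in ovary, against 0.996%, 4.92% and 1.75% of all genes. The windows of Hspa1a, Hspa1b and Hsph1, shown above, hold a heat shock element, which in Hsph1 lies after the start. Dnajb1 has no match to either form in its window.

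**Figure D5:**
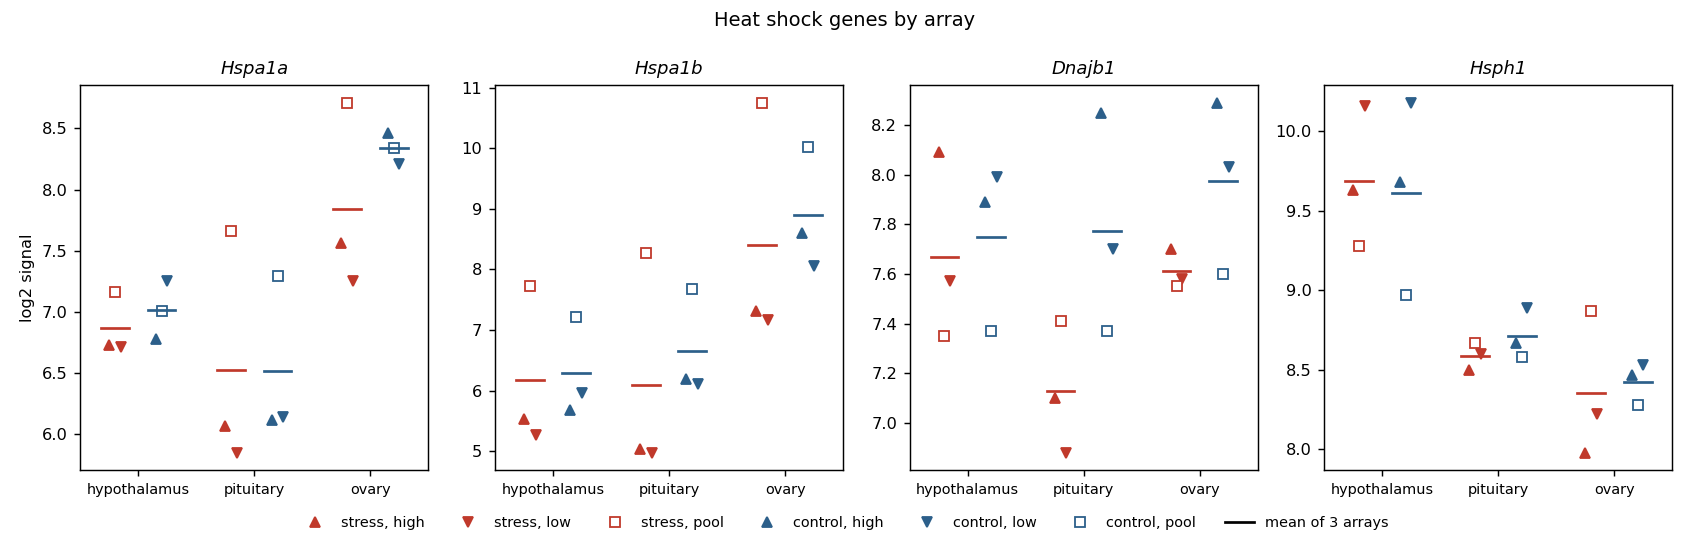
Log2 signal of Hspa1a, Hspa1b, Dnajb1 and Hsph1 on each array by tissue, with stress (red) left of control (blue), triangles for the single mice, open squares for the pool and a bar for the mean of 3 arrays. The open squares of Hspa1b top every group, and in pituitary and ovary the red triangles of Hspa1b lie below the blue ones. Each vertical axis covers only the range of its gene.

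No gene of the heat shock response list was called for stress. Over its 12 members the hypothalamic difference had a median of -0.03, the pituitary one of -0.05 and the ovarian one of -0.01. Over its 8 other measured genes, among them Bag3 and Stip1, the medians were 0.02, -0.15 and -0.09. Without the pools the medians were -0.06, -0.22 and -0.16 over the 12 members, with 1 of the 12 positive in pituitary, and -0.11, -0.24 and -0.21 over the 8 other genes. In pituitary all 8 of these had negative differences, with Stip1 and Chordc1 at -0.36 over all arrays. Over these arrays, positive differences were few in other lists too: 5 of 27 co-chaperones and heat shock factors and 2 of 21 other chaperones. Of the 17 other endoplasmic reticulum genes 5 were positive in pituitary, of the 66 members 20 and of all 22180 genes 9681. Of 27 measured co-chaperones and heat shock factors, 0 were called in any tissue, and the medians were -0.03, -0.14 and 0.02 (without the pools -0.10, -0.23 and -0.06). Ptges3, the p23 co-chaperone of Hsp90, differed by -0.47 in pituitary and the heat shock factor Hsf2 by 0.32 in ovary, both uncalled. Fkbp5, known as a glucocorticoid-induced gene, differed by 0.08, 0.19 and 0.02 in hypothalamus, pituitary and ovary.

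Whether stress acted differently in the 3 tissues was tested as an interaction. No member passed in any pair (limma adjusted p at or above 0.999753). At an unadjusted p under 0.05 there were 3 members for hypothalamus against pituitary (3.77% of all genes), 1 for hypothalamus against ovary (2.52%) and 4 for pituitary against ovary (3.81%). Dnajb7 had the smallest p, with a stress difference 1.0 larger in hypothalamus than in pituitary (limma adjusted p = 0.999753).

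High and low ovulation were compared with treatment in the model, 2 mice a side. No member passed in any tissue. At an unadjusted p under 0.05 there were 15 members in hypothalamus, 2 in pituitary and 1 in ovary, against 19.3%, 5.23% and 10.7% of all genes. In hypothalamus the smallest p values belonged to Dnajc10, Dnajc21 and Dnajc2, the last a ribosome-bound J-domain protein. Dnajc10 read 8.85 and 8.78 in the high mice and 9.47 and 9.47 in the low mice (stress and control). The high mice were lower in both treatments, with a mean difference of -0.66 (-1.04 to -0.28, limma adjusted p = 0.143). Dnajc21 read 6.46 and 6.82 in the high mice and 7.43 and 7.35 in the low mice, a difference of -0.75 (limma adjusted p = 0.145), and Dnajc2 differed by -0.60 (adjusted p = 0.169).

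Of the 7 endoplasmic reticulum members, 6 had negative differences in hypothalamus (median -0.52), such as Dnajc3 with -0.62, Hsp90b1 with -0.61 and Hspa5 with -0.46, and none passed. Dnajb11 differed by 0.02. Of the 17 other genes of that list 8 were negative there (median 0.01), and of all 22180 genes 10388 (median 0.03). In the test of genes at or above the median level, 3 members and 1138 genes were called there. In pituitary Dnajb7 differed by 0.76, Hspb6 by -0.52 and Dnajc27 by -0.49 (limma adjusted p = 0.9). In ovary Dnajb2 differed by 0.50, with 6.66 and 6.94 in the high mice and 6.10 and 6.50 in the low mice (stress and control). Hspa12a differed by -0.52 and Dnajc16 by -0.36, and their adjusted p values were 0.465 and 0.468.

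The pools differed from the single mice in many members. This comparison, with treatment in the model, was added after the values were seen, and the genes named in it were chosen from them. In hypothalamus 4 members were higher and 4 lower in the pools (3.49% and 1.79% of all genes), in pituitary 11 and 9 (11.3% and 7.06%) and in ovary 7 and 6 (7.36% and 3.54%). Leaving out 1 array at a time moved the called members to between 0 and 16 in hypothalamus, 8 and 20 in pituitary and 0 and 11 in ovary. Hspa1b was higher in the pools by 1.85, 2.39 and 2.60 in hypothalamus, pituitary and ovary (limma adjusted p = 0.0087, 0.00409 and 0.00617). Dnajc14, a J-domain protein that interacts with dopamine receptor D1, was higher by 1.40, 1.58 and 1.30: its pools read 9.18 and 9.02 in hypothalamus (stress and control), and its single mice 7.44 to 7.88.

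Other members were lower in the pools of all 3 tissues. Pool minus single was -1.30, -1.43 and -0.85 for Dnajc10, -1.11, -1.56 and -0.68 for Hsp90b1 and -1.02, -1.27 and -0.61 for Hspa4l in hypothalamus, pituitary and ovary, each with a limma adjusted p under 0.05. Dnajc21 passed in pituitary only (-1.75, limma adjusted p = 0.00146), where the pools read 6.38 and 6.50 (stress and control) and the single mice 7.92 to 8.34. Marker lists of other tissues stood apart in some pools, as given above, and the mean over 6 oocyte markers was 7.64 and 7.41 in the stressed and control ovary pools, against 5.69 to 6.25 in single-mouse ovaries. In pituitary the mean over 3 oligodendrocyte markers was 6.26 and 6.16 in the stressed and control pools, against 5.05 to 5.29 in single mice. The part of other cells in these differences was not tested. Pooling, the number of mice and the ovulation class of these samples cannot be told apart.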

How the data were processed

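Biotin-labelled RNA of 18 samples was hybridised to Affymetrix Mouse Gene 2.0 ST arrays. The log2 signals are those the authors deposited. They came from the Transcriptome Analysis Console, per the submitters' processing notes, and its version and normalization are not given in the sources used here. The log2 scale was read from the values. Of 41345 transcript clusters, 23521 named 1 gene by the platform annotation, 1814 named several and 16010 none. A gene's cluster with the highest mean was kept, which gave 22180 genes. The members and gene lists were chosen with earlier results of these data known.

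Stress minus control was fitted per tissue on 6 arrays with limma 3.58.1 (lmFit and eBayes, R 4.3.3). Tissue contrasts and their interaction with stress were fitted on all 18 arrays with mouse or pool as a block. Benjamini-Hochberg adjustment covered all genes, tests were two-sided and the threshold was 0.05. No filter was applied. The number of arrays, and the unlike samples in each group, limit the precision. The fits were tested on simulated data.

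Values are given for members with the smallest p values per tissue, the 6 largest called differences in each direction per tissue contrast and a core list. Alternatives were no animal block or a random one, no pools, each replicate left out, quantile normalization, median centring, a level filter and a replicate block by ovulation class. Deviations from the group mean correlated between treatments at 0.359 to 0.727 over 9 same-class pairs and -0.521 to 0.321 over 18 pairs of different classes. Each group mean includes the pool, so a shift of the pools alone moves these values. Pool with pool gave 0.66 to 0.727, and pool with single mouse -0.521 to -0.283. High with high and low with low gave 0.366 and 0.359 in pituitary, against 0.313 and 0.321 for high with low. In ovary these were 0.373 and 0.374 against 0.263 and 0.19, and in hypothalamus 0.405 and 0.52 against -0.0502 and 0.135. The class is a selection by oocyte number, not a shared animal. Promoter windows were searched in RefSeq sequences of build GRCm38.p6.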

Additional observations from a re-analysis of the deposited data

How the results depend on the processing

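Stress minus control called 0 members and 0 genes in each tissue under all alternatives run, the replicate block by ovulation class included (0 members and 0 genes), so the block changed no call. Of 1280 re-estimates of single members in that comparison 191 changed sign, all while uncalled, and the cause was not tested. In the tissue contrasts 1909 of 2178 re-estimates of single members kept direction and call, 173 lost the call, 20 gained it and 76 changed sign while uncalled. Of 115 called member contrasts, 76 held in all 11 alternatives and 39 were lost in at least 1. Hypothalamus minus pituitary called 23 members without the animal block, against 35 with it. High minus low ovulation in hypothalamus called 3 members and 1138 genes among genes at or above the median level, where fewer genes were tested, against 0 and 0 over all genes. Leaving out 1 array at a time gave 0 to 1 genes there and 0 to 27 in ovary.

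In pools minus single mice, leaving out 1 array gave 0 to 16 members and 30 to 2042 genes in hypothalamus, 8 to 20 members and 662 to 3802 genes in pituitary, and 0 to 11 members and 69 to 2009 genes in ovary. The median stress difference over members ran from -0.043 to 0.073 in hypothalamus, -0.163 to -0.036 in pituitary and 0.017 to 0.096 in ovary with 1 array left out, and in pituitary it was -0.158 without the pools. Between the high mice of hypothalamus it was -0.01 under quantile normalization, against -0.09. With 3 unlike arrays a group, values that miss the threshold do not show that stress had no effect.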

Other observations

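Chaperones outside the heat shock and J-domain families were also counted. Of 21 measured, 4 were higher and 4 lower in hypothalamus than in pituitary (20.8% and 21.5% of all genes). In hypothalamus against ovary 2 were higher and 8 lower (22.3% and 27.0% of all genes). In pituitary against ovary 2 were higher and 8 lower (20.3% and 23.2%). For stress 0 were called in any tissue. Cryab (alpha B-crystallin), a small heat shock protein whose symbol falls outside the Hspb names, was higher in hypothalamus by 1.93 than in pituitary and by 1.75 than in ovary (limma adjusted p = 1.59e-10 and 1.51e-10). Trap1, the mitochondrial Hsp90, was lower by 0.82 in hypothalamus and 1.05 in pituitary than in ovary, the tissue in which Hspd1 and Hspe1 were also highest.

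Dnaja1, a cytosolic J-domain partner of Hsp70, was measured only by a cluster shared with Mir207, which read 7.14 to 7.70 in hypothalamus, 7.14 to 8.00 in pituitary and 7.44 to 7.63 in ovary. Hspa8 had 3 further clusters, which read 7.97 to 10.18, below the 11.63 to 12.15 of the cluster used. They varied more than that cluster: in pituitary they read 8.62 to 10.18, 7.97 to 9.43 and 7.97 to 9.45.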
